A study of Homo sapiens with 24 samples.

Results

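The 162 genes described here are the well-counted long intergenic non-coding RNAs (lincRNAs) of PPC1 cells: the lincRNA rows of the count table with at least 50 reads in at least 6 of its 24 libraries. They were taken from 6015 lincRNA rows among 48162 genes, after GAS5, ZFAS1 and genes whose names start with SNHG had been set aside, which removed 3 rows that reached the count. PPC1 is an established human prostate cancer cell line. There were 4 conditions, each sequenced as 6 libraries, namely untreated parental cells, parental cells given LCL521 at 5 μM for 5 hours, polyploid giant cancer cells (PGCC), and PGCC given LCL521 likewise. LCL521 is a pro-drug that blocks acid ceramidase, the enzyme encoded by ASAH1, and PGCC were made by irradiating the cells with 8 Gy on day 2, catching the large cells on a 20 micron strainer and harvesting on day 5. The labels name no genotype or introduced genetic change for any group, and all 4 came from the same line. The paper describes PGCC as holding multiple genome copies, and genome content was not measured in these libraries. Parental cells differed from PGCC in irradiation and in size selection together, so the effects of these cannot be told apart.

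The members were selected on their raw read counts, which are the same counts that are described below, so a high count is no finding about them. A lincRNA well counted in PGCC alone could enter it, and 19 of the 162 reached 50 reads in no parental library, with or without LCL521, while 2 reached it in no PGCC library. A further 81 had at least 50 reads in all 24 libraries. Just inside the rule were CTD-2619J13.16, whose sixth-highest count was 50, and RP11-435B5.4 and RP11-552D4.1, with 51 each. Just outside it were LINC00516, AC104135.4 and CTC-444N24.8, whose sixth-highest count was 49. RP11-552D4.1 gave a log2 fold change of PGCC over parental cells of 0.87, RP11-435B5.4 of 0.19 and CTD-2619J13.16 of -0.82.

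Total counts lay between 14835246 and 19906601 per library, and the members held between 0.223% and 0.367% of them. Of the prostate markers, HOXB13 had at least 5520 reads in every library, while KLK3 and KLK2 had none in 24 libraries and TMPRSS2 had at most 2. The keratins KRT8 and KRT18 and the mesenchymal marker VIM were present throughout, while the epithelial adhesion genes were low, with EPCAM at 0 to 17 reads and CDH1 between 1.06 and 6.49 CPM over the 4 conditions. The leukocyte markers CD3E and CD68 had at most 2 reads in any library, while PTPRC lay between 0.406 and 2.74 CPM (read counts scaled to a common library size) in parental cells and between 2.34 and 4.02 CPM in PGCC. CDKN1A, a cell cycle inhibitor and a known target of p53, lay between 5.1 and 14.4 CPM in parental cells and between 52.3 and 186 CPM in PGCC. MDM2, another target of p53, lay between 40.9 and 57 CPM in parental cells and between 39.6 and 45.7 CPM in PGCC. Whether p53 acts in these cells was not tested. Nothing in the labels says that the 6 libraries of a condition came from separate cultures, so p-values measure the spread between these libraries. RNA was measured relative to the other reads of a library, so fewer cells holding a transcript and fewer copies of it per cell cannot be told apart.

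LincRNAs are transcribed by RNA polymerase II from loci between protein-coding genes, and most are spliced and polyadenylated. Many stay in the nucleus and are turned over fast, while some are abundant scaffolds: NEAT1 builds the nuclear bodies called paraspeckles, MALAT1 sits at nuclear speckles, and NORAD holds Pumilio proteins in the cytoplasm. Others are the primary transcripts from which microRNAs are cut, share a promoter with a neighbouring gene, or were later found to encode a small protein. The libraries were made after poly(A) enrichment, which captures transcripts without a tail poorly.

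Within 8 members, on the same strand, lay 12 microRNA hairpins listed in the RefSeq table. The sequences below are mature RNAs of 5 of these hosts, shown because they say what the hosts yield, and 2 of the 5, MIR924HG and LINC00461, were called between PGCC and parental cells. They are from RefSeq (GRCh38.p14), 5′ to 3′, with the seed, bases 2 to 8, in capitals. MIR222HG (listed as RP6-99M1.2) holds miR-221 and miR-222, whose 3p arms share a seed and bind the mRNA of the cell cycle inhibitor CDKN1B. MIR23AHG (CTD-3252C9.4) holds miR-23a, miR-27a and miR-24-2, LINC00461 holds miR-9-2, MIR924HG (LINC00669) holds miR-924, and DIO3OS holds miR-1247. The libraries measured the host transcripts and not the mature microRNAs.
miR-221-3p: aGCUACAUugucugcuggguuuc
miR-222-3p: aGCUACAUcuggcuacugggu
miR-23a-3p: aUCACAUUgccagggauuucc
miR-27a-3p: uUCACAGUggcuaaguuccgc
miR-24-3p: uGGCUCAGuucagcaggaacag
miR-9-5p: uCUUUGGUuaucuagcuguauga
miR-924: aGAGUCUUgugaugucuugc
miR-1247-5p: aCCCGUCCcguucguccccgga

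NORAD (LINC00657), among the 2 members with the highest level per listed length, is known for repeated sites of the Pumilio proteins. Its 5339-base transcript, at GRCh38 chr20:36045622-36050960 on the minus strand, held 15 matches to TGTANATA on the transcript strand, 10 of them with T at the variable base. Of the 122 members with an identifier in GENCODE 29, 102 held no match and 13 held 1, and the next highest was NEAT1 with 6 in a much longer transcript. The 6 sites below are shown because they carry the letters that define this RNA, with the match in capitals and flanking bases in lower case. A match is a description of the letters, not evidence of binding in these cells.
NORAD site 1: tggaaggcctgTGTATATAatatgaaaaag
NORAD site 3: aaatcacatttTGTAAATAcctttttgtta
NORAD site 5: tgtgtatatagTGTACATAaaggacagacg
NORAD site 9: ctttgctatacTGTATATAttgtatatata
NORAD site 12: ttactgtgctgTGTATATAgtgtatataag
NORAD site 15: attagcctattTGTAAATAcctttgttata

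Levels per length differed widely between members. Taken as CPM per kilobase of listed exon length over all 24 libraries, the highest were LINC01133 (RP11-48O20.4) at 109, NORAD at 92.9 and NUTM2B-AS1 (RP11-773D16.1) at 61.4. CTC-503J8.6 followed at 53.4, SMIM26 (LINC00493) at 42.1, SNHG19 (RP11-304L19.5) at 37.5 and MRLN (RP11-59J5.1) at 33.6. NCBP2AS2 (RP11-21N3.1) stood at 30.1, ELFN1-AS1 (AC074389.9) at 22.1 and RP11-220I1.1 at 19.7. MALAT1 and NEAT1, which are among the most abundant RNAs in many tissues, stood at 15.6 and 10.5. These 2 values come from poly(A)-enriched libraries and from the listed lengths, so they do not show how abundant either RNA was in the cells. All of the 10 highest had 50 reads in every library. Of these 10, 2 were called lower in PGCC and none higher, where 24.3% of all genes tested were lower and 23.1% higher: NUTM2B-AS1, with a log2 fold change of -0.62 ± 0.12 (SE; adjusted p = 0.000904), and RP11-220I1.1, with -0.29 ± 0.11 (adjusted p = 0.0359). The call of RP11-220I1.1 was lost when any of replicates 1 to 5 was left out (adjusted p between 0.0618 and 0.123) and with library totals (adjusted p = 0.148). A call means an adjusted p under 0.05 in edgeR's quasi-likelihood test, adjusted by the Benjamini-Hochberg method over all genes tested.

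NUTM2B-AS1 was measured between 50.8 and 76.8 CPM in parental cells, with a median of 60.4, and between 33.6 and 46.4 CPM in PGCC, with a median of 41.3. The groups did not overlap. It lies at hg19 chr10:81563813-81586350, in a family of near-identical NUTM2 copies whose reads the counting could have split. When the replicate number was added to the fit as a block, 2 further members of the 10 passed: NCBP2AS2, which shares a start region with the cap-binding protein gene NCBP2 (adjusted p = 0.00138 in place of 0.081), and ELFN1-AS1 (0.0389 in place of 0.214). Their log2 fold changes without the block were -0.47 and -0.27.

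The comparison of PGCC with parental cells asked how the irradiated giant cells differ from the cells they came from. All 162 members passed the filter on low counts. Of them, 69 were called (42.6%), 40 higher and 29 lower in PGCC, while 47.4% of all 13812 genes tested were called, 23.1% higher and 24.3% lower. The members' share was thus near the background and is no result about lincRNAs as a class. Their median log2 fold change was -0.003, against -0.028 over all genes. Scaled by library totals in place of TMM factors, the split was 50 higher and 21 lower (70.4% of calls higher, against 58.0% as reported). Over all genes 60.2% of calls were then higher, against 48.7% as reported, and the median of all genes moved to 0.066.

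The direction differed between the always well-counted members and the rest. Of the 81 with 50 reads in all 24 libraries, 7 were higher and 18 lower, with a median log2 fold change of -0.203. Among all genes that reached the same count, 18.7% were higher and 29.1% lower, against 8.64% and 22.2% of these 81. Of the other 81, 33 were higher (40.7%) and 11 lower (13.6%), with a median of 0.558, and the genes tested without 50 reads in every library were higher in 34.7% and lower in 11.6%. Those genes include some below the count rule of the members, so they are not matched to the other 81. The split thus had the same direction as over all genes. Fewer of the always well-counted members were called, higher or lower, than of all genes with 50 reads in all 24 libraries. Levels were not matched beyond that threshold, so the lower shares are no result about lincRNAs. The rule bears on this split, because a lincRNA that reaches 50 reads in at least 6 but not all libraries can do so by being high in PGCC: all 19 that reached it in no parental library were called higher.

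More than 2-fold higher were 27 called members, against 11.0% of all genes tested, and more than 2-fold lower were 7, against 2.82%. Of the 27 large rises, 25 belonged to the 81 members without 50 reads in every library, which can enter the rule by being high in PGCC. Of all genes tested without 50 reads in every library, 26.7% rose as far. That set also holds genes below the count rule of the members, so it is not matched to them. The always well-counted members held 2 large rises, against 5.03% of genes with 50 reads in all 24 libraries, and 4 large falls, against 1.97%. The other 3 falls stood against 5.08% of the unmatched set. Of the 40 called higher, 36 were higher in all 6 same-numbered pairs of libraries, and of the 29 called lower, 25 were lower in all 6. The 6 PGCC libraries lay above all 6 parental libraries for 25 members (13.9% of all genes tested) and below them for 11 (12.9%). With LCL521 in both cell populations, in the other 12 libraries, 81 members were called (50%), 46 higher and 35 lower, where all genes gave 48.9%, 25.0% higher and 23.9% lower. There, 31 were more than 2-fold higher (11.2% of all genes) and 6 more than 2-fold lower (2.53%), and of the 81 always well-counted members 8 were higher (21.0% of such genes) and 24 lower (28.6%). A total of 63 members were called in both comparisons, all 63 in the same direction. Over all genes tested in both, 42.9% were called in the same direction and 0.0% in opposite directions, so the members did as other genes. The libraries with and without LCL521 share replicate numbers and deviate together (median correlations of 0.61 in parental cells and 0.471 in PGCC), so the second comparison is not independent of the first.

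**Figure D1:**
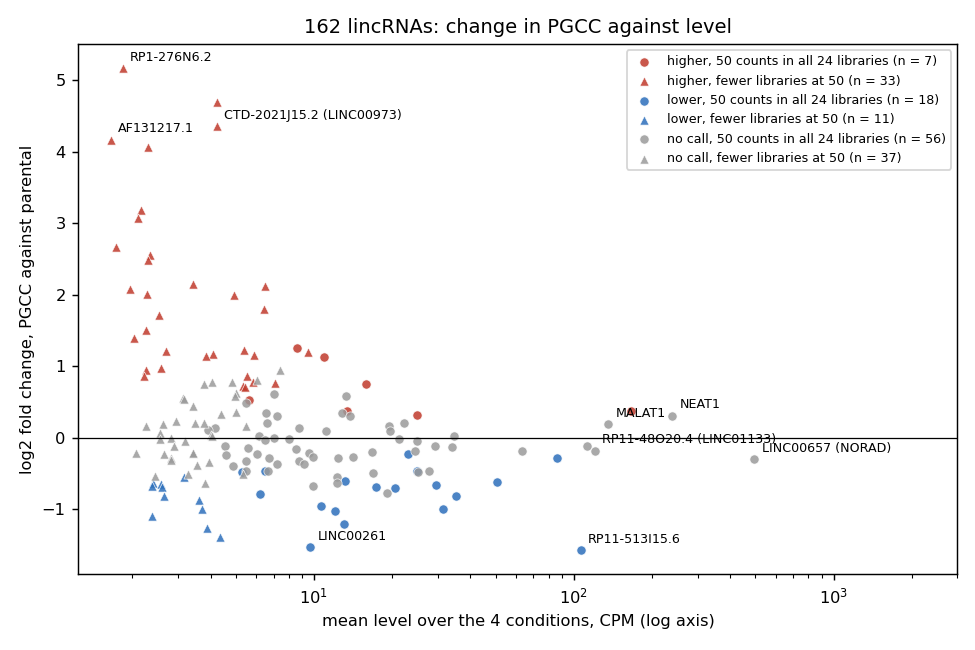
Log2 fold change of PGCC over parental cells (y axis) against the mean level of each of the 162 members (x axis), with members called higher, called lower and not called in separate colours, and those with 50 reads in all 24 libraries as circles. The rises of 4 to 5 log2 units belong to members of low mean level, while the falls reach -1.57.

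The largest rise was that of RP1-276N6.2 at chr6:160693649-160697162, which overlaps SLC22A2, the gene of an organic cation transporter, on the opposite strand. It was measured between 0 and 0.233 CPM in parental cells, with a median of 0.0591 from 0 to 4 reads, and between 3.28 and 4.08 CPM in PGCC, with a median of 3.85 from 59 to 81 reads. The log2 fold change was 5.17 ± 0.41 (adjusted p = 3.72e-07), a value that depends on the small count added by the fit because the parental reads are so few. Every PGCC library stood far above every parental library. SLC22A2 itself was also higher, with a log2 fold change of 2.60 (adjusted p = 4.83e-05). Since no source used here gives the strand setting of the counting, reads of the pair cannot be told apart.

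LINC02303 (RP11-369C8.1), at chr14:46175453-46185155, lies 452710 bases from the nearest protein-coding gene. Its libraries ran from 0.058 to 0.641 CPM in parental cells, with a median of 0.264, and from 5.48 to 11.3 CPM in PGCC, with a median of 7.67. This was a rise of 4.70 ± 0.35 log2 units (adjusted p = 2.27e-07). LINC00973 (CTD-2021J15.2), at chr3:98699902-98701940, ran from 0.0692 to 0.754 CPM with a median of 0.295 in parental cells, and from 7.03 to 10.5 CPM with a median of 7.55 in PGCC. It rose by 4.36 ± 0.32 log2 units (adjusted p = 2.22e-07). Neither overlaps a protein-coding gene, and in both the lowest PGCC library exceeded the highest parental library.

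AF131217.1 was counted at 0 to 8 reads in parental cells, with a median of 0.115 CPM, and between 1.61 and 3.45 CPM in PGCC, with a median of 3.13. This is a rise of 4.17 ± 0.48 log2 units (adjusted p = 1e-05). AC004947.2 rose by 4.07 ± 0.43 (adjusted p = 4.6e-06), from a parental median of 0.196 CPM (0.116 to 0.484) to a PGCC median of 2.74 CPM (2.3 to 7.26). Both are intergenic, 197343 and 13034 bases from the nearest protein-coding gene. In AC004947.2 the PGCC libraries of replicates 4 and 5 averaged 6.73 CPM and the other 4 averaged 2.55 CPM, so the rise was present in both sets at different sizes. Among members, those whose log2 CPM was most like that of RP1-276N6.2 over all 24 libraries were LINC00973 (Pearson r = 0.972), LINC02303 (0.958) and AF131217.1 (0.957), a likeness in which the difference between PGCC and parental libraries has the largest part.

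A further 5 members complete the 10 largest rises with the same direction in all 6 pairs. Their log2 fold changes were 3.18 for LINC01940 (AC114788.2), 3.08 for KB-1568E2.1, 2.67 for ITGB1-DT (RP11-462L8.1), 2.55 for RP11-148B18.4 and 2.49 for MIR924HG. ITGB1-DT overlaps the gene of integrin beta-1 on the opposite strand, and ran from 0.116 to 0.968 CPM in parental cells and from 2.15 to 3.99 CPM in PGCC, while ITGB1 gave 0.18 (adjusted p = 0.0992). None of these 10 overlapped between the groups. They were picked for the size and direction of the change in these libraries, and all 10 had 50 reads in no parental library. All 10 also stood higher in PGCC with LCL521 in both populations, by 2.35 to 4.88 log2 units.

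**Figure D2:**
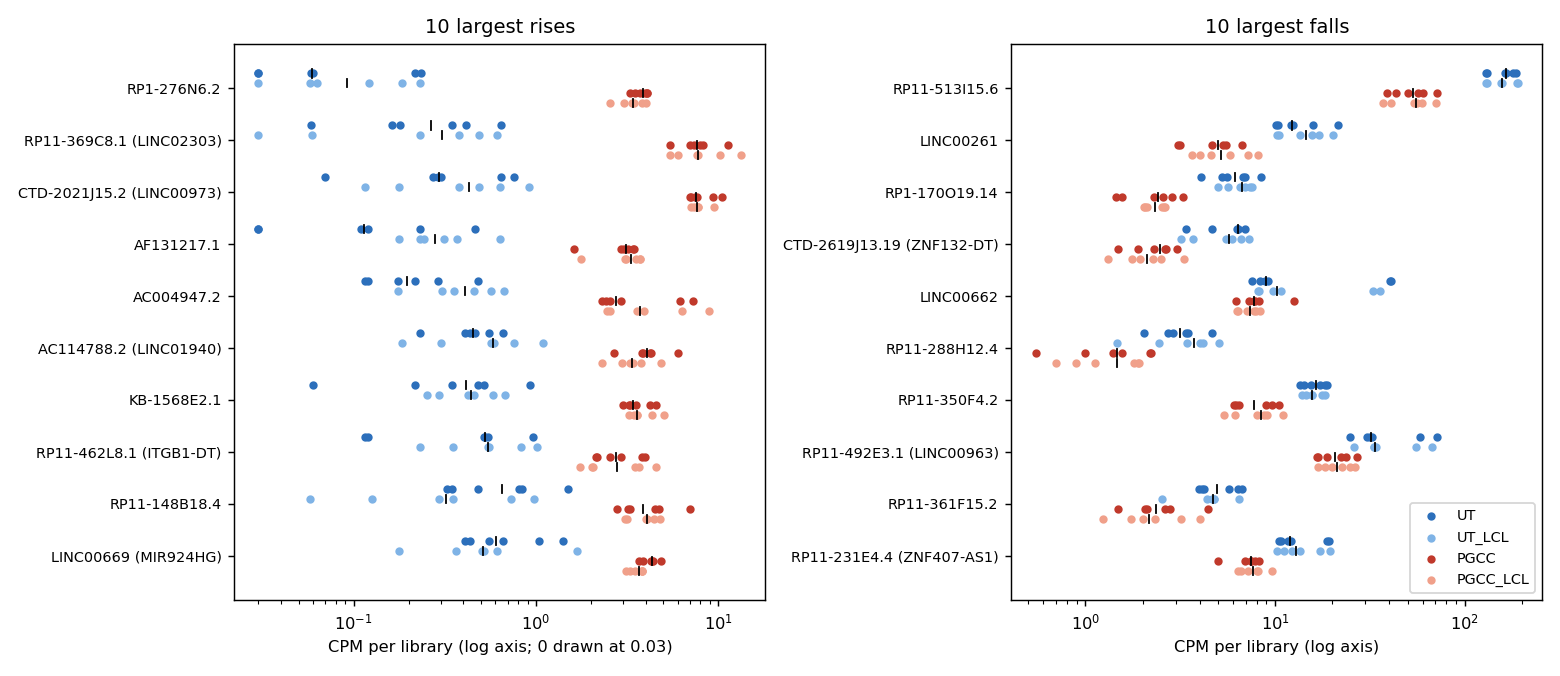
CPM of the members with the largest rises and falls in each of the 6 libraries of the 4 conditions, on a log axis, with 1 point per library and a tick at the median. The rising members sit near or under 1 CPM in parental cells and above it in PGCC, and LINC00662 shows 2 parental libraries near 41 CPM and 4 near 9.

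Promoter sequence was available for 61 of the members, as the 300 bases from 250 before to 50 after the start of the RefSeq gene (GRCh38.p14). The start that these cells use was not measured. The promoters of the members held a median of 25 CpG pairs, against 14 over 35116 promoters. Among the 16 called higher in PGCC the median was 10, among the 9 called lower 25, and among the 36 with no call 26. Fewer than 10 CpG pairs were found in 8 of the 16 called higher, in 1 of the 9 called lower (LINC00261) and in 6 of the 36 with no call. As shares these are 50%, 11.1% and 16.7%, and the share over all promoters was 43.6%, nearer to that of the members called higher than to that of the rest.

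The sequences below are promoters of members that rose most and have an entry, LINC00973 (GRCh38 chr3:98914316-98914615, plus strand, 7 CpG pairs), LINC01940 (chr2:238926220-238926519, minus strand, 7) and MIR924HG (chr18:39751946-39752245, minus strand, 3). ARHGAP29-AS1 (RP11-148B18.3; chr1:94247618-94247917, plus strand, 40), a member that rose by 2.15 log2 units from a CpG-rich start, is shown for contrast. The last is LINC00261 (chr20:22578593-22578892, minus strand, 8), which fell. CpG pairs are in capitals.
LINC00973: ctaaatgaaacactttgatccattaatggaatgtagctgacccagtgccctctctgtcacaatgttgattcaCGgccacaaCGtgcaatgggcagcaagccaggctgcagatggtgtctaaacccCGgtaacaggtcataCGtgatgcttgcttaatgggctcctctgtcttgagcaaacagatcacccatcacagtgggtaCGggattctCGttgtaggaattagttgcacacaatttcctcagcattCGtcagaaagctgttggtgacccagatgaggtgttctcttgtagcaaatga
LINC01940: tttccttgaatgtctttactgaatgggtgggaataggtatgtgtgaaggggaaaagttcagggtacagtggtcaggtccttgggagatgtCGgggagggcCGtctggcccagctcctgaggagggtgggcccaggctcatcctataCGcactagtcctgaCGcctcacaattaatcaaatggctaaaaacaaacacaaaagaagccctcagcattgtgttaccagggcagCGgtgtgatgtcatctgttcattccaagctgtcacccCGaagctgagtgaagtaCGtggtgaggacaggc
MIR924HG: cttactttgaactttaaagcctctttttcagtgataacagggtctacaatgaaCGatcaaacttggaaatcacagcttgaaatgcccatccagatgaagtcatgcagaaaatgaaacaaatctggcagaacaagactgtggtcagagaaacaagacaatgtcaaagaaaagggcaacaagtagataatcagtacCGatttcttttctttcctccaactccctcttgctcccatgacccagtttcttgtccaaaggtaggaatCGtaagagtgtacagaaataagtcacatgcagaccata
ARHGAP29-AS1: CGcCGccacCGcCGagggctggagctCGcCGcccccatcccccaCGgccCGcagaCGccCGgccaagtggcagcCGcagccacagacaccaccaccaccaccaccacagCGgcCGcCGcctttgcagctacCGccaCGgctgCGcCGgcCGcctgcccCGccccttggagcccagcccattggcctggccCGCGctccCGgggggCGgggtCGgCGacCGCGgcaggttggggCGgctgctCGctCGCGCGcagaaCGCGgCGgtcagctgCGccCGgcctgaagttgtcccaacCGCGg
LINC00261: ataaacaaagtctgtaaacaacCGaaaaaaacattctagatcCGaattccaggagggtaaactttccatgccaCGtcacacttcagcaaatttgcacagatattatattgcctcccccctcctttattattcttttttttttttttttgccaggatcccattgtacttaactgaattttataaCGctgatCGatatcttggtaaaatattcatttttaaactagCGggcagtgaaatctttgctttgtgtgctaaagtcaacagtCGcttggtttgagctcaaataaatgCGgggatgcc

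The letters TGANTCA are looser than the site of AP-1 factors, which has C or G at the variable base. A search of both strands found them in 3 of the 16 promoters of members called higher (LINC00973, as TGATTCA, CYTOR and LASTR). They were also found in 1 of the 9 called lower (LINC00963) and in 2 of the 36 with no call. That is 9.84% of the members' promoters, against 7.71% of all. CCAAT was found in 39.3% of the members' promoters and in 34.6% of all, and TATAAA in 4.92% and 11.5%. The E2F site TTTNGCGC was found in none of the 61 and in 1.79% of all. These are counts of letters in a fixed window, in groups of few promoters.

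**Figure D3:**
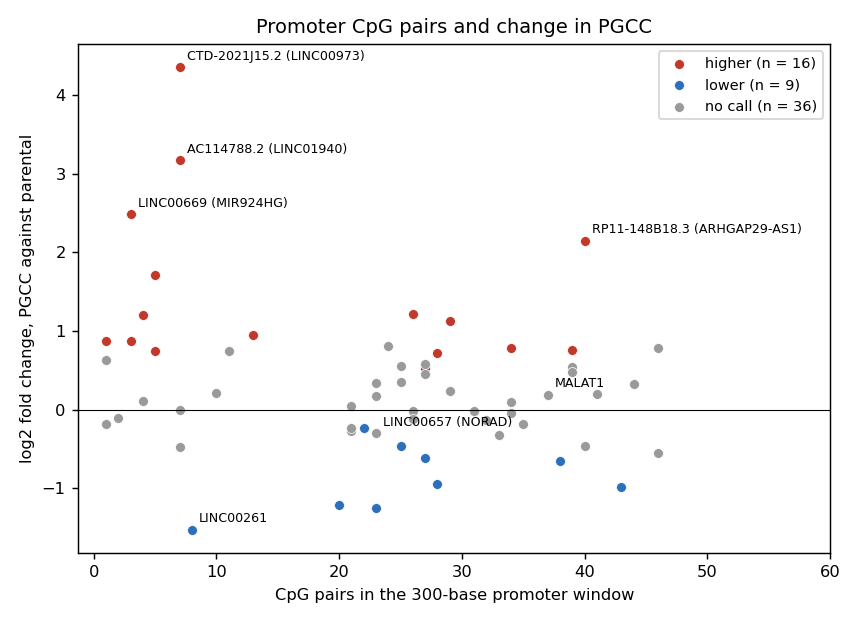
Number of CpG pairs in the 300-base promoter (x axis) against log2 fold change of PGCC over parental cells (y axis) for members with a RefSeq promoter entry. Members called more than 2-fold higher have between 3 and 40 CpG pairs with a median of 7, and those with no call have a median of 26.

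The largest fall was that of RP11-513I15.6, at chr6:34247456-34254545, near NUDT3, the gene of a diphosphoinositol polyphosphate phosphohydrolase. It was measured between 130 and 187 CPM in parental cells, with a median of 165, and between 39.1 and 71.8 CPM in PGCC, with a median of 53.5. The log2 fold change was -1.57 ± 0.15 (adjusted p = 1.49e-06), and NUDT3 gave -0.82 (adjusted p = 0.00014). It was among the best counted of the members that changed, with at least 646 reads in every parental or PGCC library, and the groups lay far apart.

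LINC00261, which is transcribed beside FOXA2, a regulator of endoderm, ran from 10.1 to 21.6 CPM with a median of 12.3 in parental cells and from 3.09 to 6.71 CPM with a median of 5.00 in PGCC. It changed by -1.53 ± 0.23 on the log2 scale (adjusted p = 0.000104), while FOXA2 gave -0.09 (adjusted p = 0.795). RP1-170O19.14 lies 55 bases from HOXA13, a homeobox gene of the posterior body, on the same strand. It ran from 4.06 to 8.41 CPM in parental cells and from 1.45 to 3.25 CPM in PGCC. Its log2 fold change of -1.39 ± 0.23 (adjusted p = 0.000213) stood beside -1.40 for HOXA13 (adjusted p = 4.15e-06). ZNF132-DT (CTD-2619J13.19), which starts 226 bases from the zinc finger gene ZNF132 in the other direction, gave -1.26 ± 0.22 (adjusted p = 0.000286) and ZNF132 gave -0.78 (adjusted p = 0.0271).

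For LINC00662 the change was -1.21 ± 0.45 log2 units (adjusted p = 0.0407), and 2 parental libraries decided it. Replicates 4 and 5 stood at 40.4 and 41.1 CPM, and the other 4 parental libraries lay between 7.54 and 9.14 CPM. In PGCC the 6 libraries lay between 6.21 and 12.6 CPM. Without replicate 1, 4 or 5 the adjusted p lay between 0.0553 and 0.162, and it was 0.0595 with library totals and 0.16 by limma-voom. Without replicates 4 and 5 the change was -0.18 (adjusted p = 0.291), and under the replicate block the adjusted p was 0.0529. With LCL521 in both populations the change was -1.25 (adjusted p = 0.0138), and -0.39 (adjusted p = 0.0432) without replicates 4 and 5.

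The other 5 of the 10 largest falls, each lower in all 6 pairs, were RP11-288H12.4, which overlaps IGF2R on the same strand, at -1.09, RP11-350F4.2 at -1.02, LINC00963 at -0.99, RP11-361F15.2 at -0.99 and ZNF407-AS1 at -0.95. LINC00963, known from prostate cancer models, ran from 24.8 to 71.3 CPM with a median of 32.2 in parental cells and from 16.6 to 27.2 CPM with a median of 20.6 in PGCC, so its groups overlapped. Its adjusted p was 0.00452. The groups of RP11-350F4.2 and ZNF407-AS1 did not overlap.

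The architectural lincRNAs were not called in PGCC. NEAT1 was measured between 55.2 and 449 CPM in parental cells, with a median of 133, and between 140 and 328 CPM in PGCC, with a median of 243. The log2 fold change was 0.31 ± 0.41 (adjusted p = 0.562). The parental libraries spread over more than the whole PGCC range, with replicate 4 at 449 CPM and replicate 1 at 55.2 CPM. With the replicate block the change was 0.62 (adjusted p = 0.0579), with replicates 4 and 5 left out as well 0.83 (adjusted p = 0.000872), and with LCL521 in both populations and the block 0.73 (adjusted p = 0.0197). NEAT1 stood higher in PGCC than in the same-numbered parental library in 4 of 6 pairs.

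MALAT1 lay between 57.2 and 214 CPM in parental cells, with a median of 101, and between 73.9 and 177 CPM in PGCC, with a median of 152. Its log2 fold change was 0.19 ± 0.30 (adjusted p = 0.633). NORAD lay between 371 and 717 CPM in parental cells, with a median of 489, and between 385 and 492 CPM in PGCC, with a median of 437. PGCC differed by -0.30 ± 0.15 log2 units (adjusted p = 0.109), and without replicates 4 and 5, whose parental libraries were at 717 and 712 CPM, it was -0.04 (adjusted p = 0.763). For both RNAs the groups overlapped.

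Proteins that work with these RNAs were read from lists of genes. Of 17 genes of paraspeckle proteins, 6 were lower in PGCC and none higher, with a median log2 fold change of -0.25. SFPQ and NONO, the core pair, gave -0.27 (adjusted p = 0.11) and -0.14 (adjusted p = 0.11), and TARDBP fell by 0.42 on the log2 scale (adjusted p = 0.00674). With the replicate block 10 of the 17 were lower and 1 higher: SFPQ passed at -0.27 (adjusted p = 0.003), and PSPC1, a partner of both, was the one higher, at 0.32 (adjusted p = 0.0121). Of 9 partners of MALAT1 and NORAD, 5 were lower and 1 higher. PUM2, a Pumilio protein, fell by 0.59 (adjusted p = 4.66e-05), the splicing factors SRSF1 and SRSF2 fell by 0.73 and 0.96, and METTL3, the m6A methyltransferase that acts on MALAT1, rose by 1.01 (adjusted p = 0.000222). Of 21 genes of the nuclear RNA exosome and its adaptors, which degrade short-lived lincRNAs, 9 were lower and 1 higher, EXOSC5 by the log2 fold change of -0.85 (adjusted p = 7.9e-06) and EXOSC6 by -0.75 (adjusted p = 4.66e-05). Of 14 genes of nonsense-mediated decay, 4 were lower and 1 higher. All genes tested gave 24.3% lower and 23.1% higher.

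**Figure D4:**
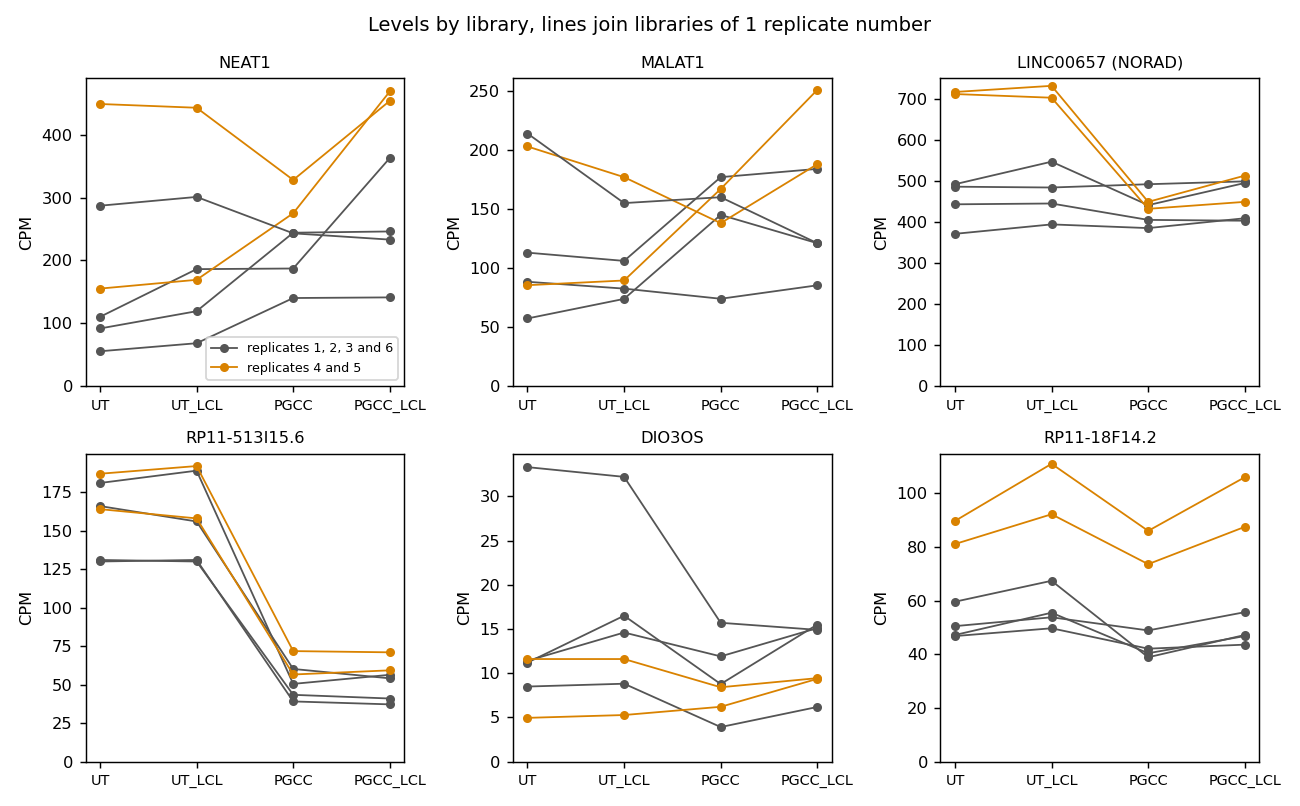
CPM of single members (y axis) in the 4 conditions (x axis; LCL marks LCL521), with a line for each replicate number and replicates 4 and 5 in orange. NEAT1 is higher in PGCC in 4 of 6 pairs, the parental libraries of replicates 4 and 5 stand apart for NORAD, and every line of RP11-513I15.6 falls.

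Hosts of microRNAs moved in different directions. MIR924HG rose from a parental range of 0.406 to 1.4 CPM to between 3.67 and 4.84 CPM in PGCC, a log2 fold change of 2.49 ± 0.27 (adjusted p = 5.88e-06). LINC00461, the host of miR-9-2, fell by 0.70 on the log2 scale (adjusted p = 0.00308), from between 19.5 and 36.0 CPM to between 11.8 and 18.8 CPM. CYTOR (LINC00152), which holds the hairpin of miR-4435, rose by 0.75 ± 0.25 (adjusted p = 0.0242), from a parental median of 12.7 CPM (7.13 to 16.5) to a PGCC median of 22.5 CPM (10.9 to 30.7). CYTOR has a near-identical copy elsewhere on chromosome 2, whose reads the counting could have split, and its change was 0.92 (adjusted p = 0.000153) without replicates 4 and 5. The call was lost without replicate 1, 2 or 6 (adjusted p between 0.0622 and 0.0967) and by limma-voom (adjusted p = 0.0523).

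MIR222HG, host of the 2 microRNAs with the shared seed, lay between 1.75 and 5.39 CPM in parental cells, with a median of 2.12, and between 3.16 and 7.51 CPM in PGCC, with a median of 3.93. Its log2 fold change was 0.75 ± 0.30 (adjusted p = 0.0558), it was higher in 6 of 6 pairs, and it passed with the block (adjusted p = 0.00366) and with LCL521 in both populations (1.16, adjusted p = 0.00982). MIR23AHG lay between 5.36 and 18.3 CPM and between 9.02 and 29.2 CPM, with 0.58 ± 0.32 (adjusted p = 0.152; 0.0229 with the block), and 0.70 (adjusted p = 0.0289) with LCL521 in both. DIO3OS gave -0.55 (adjusted p = 0.296), MUC20-OT1 0.30 (0.329) and MIR4453HG 0.24 (0.579), all without a call. MIR22HG, which carries the miR-22 precursor and is not counted among the 8 above, gave -0.13 (adjusted p = 0.672).

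Of 10 genes of microRNA processing, 6 were lower in PGCC and 1 higher, with a median log2 fold change of -0.31. DGCR8, which binds the hairpin in the nucleus, gave -0.50 (adjusted p = 0.0299), XPO5, which exports it, -0.28 (adjusted p = 0.0093), and DICER1, which cuts it in the cytoplasm, -0.45 (adjusted p = 0.0131). AGO2, which holds the mature microRNA, rose by 0.73 (adjusted p = 0.00391). Over all genes tested 24.3% were lower and 23.1% higher. The member CTA-204B4.6, which lies just downstream of AGO2 on the same strand, rose by 0.37.

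Lists of long non-coding RNAs known from other settings were read as well. Of 9 cancer-associated ones that were tested, 3 were higher in PGCC and 1 lower, a share near the 47.4% of all genes called. LINC00511 rose by 1.23 (adjusted p = 1.39e-05), CYTOR by 0.75 and DANCR by 0.23 (adjusted p = 0.0479), and CRNDE fell by 0.69 (adjusted p = 0.00858). Of 4 that respond to DNA damage, 1 was lower, TP53TG1 at -0.58 (adjusted p = 0.00102), and NEAT1, NORAD and PVT1 were not called, PVT1 passing with the block at 0.22 (adjusted p = 0.0388). Of 7 microRNA hosts on a list that named few of the members, LINC00478 alone was called, at -1.46 (adjusted p = 0.00128). Of 3 nuclear RNAs none was called, and of 2 linked to inflammation CYTOR alone was. None of the 4 listed prostate cancer-associated RNAs had enough reads to be tested. Of these RNAs, NEAT1, MALAT1, NORAD, MIR22HG and CYTOR are members.

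Some members are no longer classed as lincRNAs. Of the 122 with an identifier in GENCODE 29, 97 were still lincRNAs there and 7 were protein-coding. SMIM31 (RP11-294O2.2), a small membrane protein gene, rose from between 3.13 and 10.4 CPM, with a median of 4.72, to between 11.4 and 15.3 CPM, with a median of 13. Its log2 fold change was 1.2 ± 0.27 (adjusted p = 0.0023), and the groups did not overlap. MTLN (LINC00116), which encodes the mitochondrial micropeptide mitoregulin, gave -0.47 ± 0.14 (adjusted p = 0.0133). SMIM26, the gene of another mitochondrial small protein, gave -0.02 ± 0.11 (adjusted p = 0.896), and MRLN, which encodes the calcium pump inhibitor myoregulin, gave -0.11 ± 0.37 (adjusted p = 0.83). The row now within DYNLL2 gave -0.37 (adjusted p = 0.368), and NCBP2AS2 -0.47. A further 3 members carry the names of snoRNA host genes in later annotation: SNHG25 (-0.51, adjusted p = 0.0808), SNHG19 (0.34, adjusted p = 0.186) and SNHG30 (0.17, adjusted p = 0.611).

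Members were compared with the nearest protein-coding gene. Both genes were tested for 130 members, and both were called for 29, in the same direction for 24 and in opposite directions for 5. Across those 130 pairs the log2 fold changes had a Pearson r of 0.50 and a Spearman rank correlation of 0.50, a description over genes that are not independent, and overlapping pairs can share reads. Among the 10 members that overlap the neighbour on the opposite strand r was 0.86, and 4 of 4 pairs with both genes called had the same direction. Among the 33 that lie just downstream of the neighbour on the same strand, 6 of 6 did (r = 0.62), and among the 14 that overlap it on the same strand 2 of 2 did (r = 0.24). With divergent or overlapping starts r was 0.42 and 4 of 5 pairs had the same direction, and among members apart from the neighbour r was 0.48 and 7 of 11 did. RP5-1086D14.6 is such a member, at 1.80 beside 2.14 for ARHGAP11B, a gene with a close paralog. Whether these counts hold reads of the neighbouring transcripts was not tested. Directions and correlations of other neighbouring gene pairs are not given here, so those of the members cannot be called particular to lincRNAs.

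Other members moved without their neighbour or against it. PDCD6IP-DT (RP11-10C24.3) and RP11-10C24.1, 199 bases apart on chromosome 3 beside PDCD6IP, the gene of the ESCRT adaptor ALIX, rose by 1.13 and 1.25 (adjusted p = 0.000181 and 4.9e-05), while PDCD6IP gave 0.09 (adjusted p = 0.356). PDCD6IP-DT ran from 5.1 to 7.95 CPM in parental cells and from 10.4 to 19.6 CPM in PGCC. RP11-148B18.4 and ARHGAP29-AS1, 8698 bases apart on chromosome 1, rose by 2.55 and 2.15, while ARHGAP29, the gene of a GTPase-activating protein, gave 0.09 (adjusted p = 0.709). LASTR (RP13-463N16.6), known to bind the splicing factor SART3, and RP11-336A10.5, 12357 bases apart on chromosome 10, rose by 1.71 and 1.5, while ASB13 gave -0.76 (adjusted p = 9.32e-05). On chromosome 19 CTD-2619J13.16 and ZNF132-DT fell by 0.82 and 1.26 on the log2 scale, among 4 members within the zinc finger cluster, and the other two were not called.

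Replicates 4 and 5 stood apart in parental cells. Of 150 members with a mean over 1 CPM there, 26 averaged more than 2-fold higher in replicates 4 and 5 than in the other 4 parental libraries and 6 more than 2-fold lower. In PGCC these were 3 and 4 of 162. RP11-214C8.5 read 63.5 and 39.0 CPM in the parental libraries of replicates 4 and 5 and between 7.3 and 11.8 CPM in the others, while all PGCC libraries lay between 12 and 15.8 CPM. With all libraries the log2 fold change was -0.77 ± 0.49 (adjusted p = 0.213), and without those replicates it was 0.59 (adjusted p = 0.00557). This gene was picked after its values were seen. Without replicates 4 and 5, 91 members were called, 55 higher and 36 lower, where 54.6% of all genes were called. LINC01133, the highest member per listed length, gave -0.18 ± 0.23 (adjusted p = 0.535) with all libraries, and 0.22 without replicates 4 and 5 (adjusted p = 0.0613).

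The comparisons with LCL521 asked whether 5 hours of acid ceramidase inhibition changed expression. In parental cells none of the 152 members tested was called by edgeR, DESeq2 or limma-voom, in a comparison with 0.0% of 13277 genes called. By edgeR no member had an unadjusted p under 0.05, and 71 of the 13277 genes did. That fit takes no account of the replicate numbers that libraries share, so its lack of calls does not show that LCL521 had no effect. With the replicate block, 0.866% of genes were called, none of them a member. There 13 members had an unadjusted p under 0.05, and 1648 of the 13277 genes. The median size of the members' log2 fold changes was 0.068. The smallest p-values were those of RP11-649A18.7 (-0.34, unadjusted p = 0.081), LASTR (0.51, unadjusted p = 0.094) and AC022007.5 (-0.66, unadjusted p = 0.0994), and AC022007.5 was lower with LCL521 in 6 of 6 pairs.

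In PGCC none of the 162 members was called with LCL521, where 0.00707% of 14151 genes were. Of the members, 1 had an unadjusted p under 0.05 by edgeR and DESeq2 and 2 by limma-voom. By edgeR 218 of the 14151 genes had such a p-value. With the replicate block 1.65% of genes were called, and 3 members were among them, all higher with LCL521. NEAT1 was measured between 140 and 328 CPM in PGCC without LCL521 and between 141 and 469 CPM with it. With LCL521 it was higher by 0.37 ± 0.09 log2 units (adjusted p = 0.0295), and it was higher in 5 of 6 pairs. RP11-18F14.2, just downstream of CDYL2, gave 0.22 ± 0.04 (adjusted p = 0.0049), higher in 6 of 6 pairs, and DIO3OS gave 0.39 ± 0.10 (adjusted p = 0.0481), higher in 5 of 6 pairs.

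These 3 calls were lost when replicates 4 and 5 were left out of the fit with the block, with fewer libraries in the fit. NEAT1 then gave 0.23 (adjusted p = 0.416), RP11-18F14.2 0.18 (adjusted p = 0.156) and DIO3OS 0.39 (adjusted p = 0.157), so the change of DIO3OS kept its size and that of NEAT1 became smaller. The replicate 5 library with LCL521 read 469 CPM for NEAT1, against 275 without it. In parental cells with the block the same RNAs gave 0.27 (adjusted p = 0.134), 0.19 (adjusted p = 0.0511) and 0.17 (adjusted p = 0.445). The difference between the effects of LCL521 in PGCC and in parental cells, tested as an interaction over all 24 libraries, was called for none of the 162 members and for 0.0% of 14555 genes, with or without the block. At an unadjusted p under 0.05 there were no members without the block and 1 with it, against 60 and 148 of the 14555 genes. The smallest p-values of the interaction were those of RP11-336A10.5 (-0.51, unadjusted p = 0.104), RP11-649A18.7 (0.45, unadjusted p = 0.108) and AF131217.1 (-0.93, unadjusted p = 0.134).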

How the data were processed

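RNA was measured in 24 libraries of PPC1 cells. For these the authors deposited raw read counts per gene, made from poly(A)-enriched, paired-end libraries by alignment with STAR v2.5 and counting with HTSeq v0.6.1, and they tested the counts with DESeq2. The table also gives coordinates, which the submitters' processing notes place on hg19. The annotation release and the strand setting are not given in the sources used here, so counts of overlapping, antisense and near-identical genes are uncertain. Sequences are from RefSeq or GENCODE 29 on GRCh38 and were joined by symbol or Ensembl identifier, with no conversion of coordinates. No column of per-sample values was left out. Values of some listed genes are not reported here.

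Groups and replicate numbers came from the sample labels. The members and the gene lists were chosen with earlier results of these data known. Software versions were edgeR 4.0.16, DESeq2 1.42.0 and limma 3.58.1 under R 4.3.3, and Python 3.11.15. Genes were filtered with filterByExpr (minimum count 10, minimum total 15), scaled by TMM and each comparison was run as a quasi-likelihood test in edgeR over its 12 libraries, or over all 24 for the interaction. Benjamini-Hochberg adjustment covered all genes tested, and an adjusted p under 0.05 was a call. Errors of log2 fold changes are standard errors. CPM are counts scaled by the TMM-adjusted library size, and 3 reads corresponded to between 0.151 and 0.202 CPM. The standard errors come from the fitted test and hold the spread between these libraries as well as counting error. The procedure was tested on simulated counts.

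Same-numbered libraries deviated together. The correlation of their deviations from the condition means was at least 0.214 in every pair, with medians between 0.326 and 0.61 in the 4 comparisons of pairs of conditions, against -0.286 to -0.0902 for different numbers. Each comparison was therefore also fitted with replicate as a blocking term. The other alternatives were DESeq2, limma-voom, RLE factors, library totals, no filter on low counts, each replicate left out, replicates 4 and 5 left out, and other count rules for the members.

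Members were named if they were on a list, among the 10 highest levels per length, among the 10 largest rises or falls with 1 direction in all 6 pairs, called with LCL521 or among its 3 smallest p-values, or at the edge of the rule. Other members were picked for their place (microRNA host, cluster, neighbour, later protein-coding). Neighbours are the nearest protein-coding genes of the table. Permutation tests of single members are not given, since members were named for their changes in the same libraries.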

Additional observations from a re-analysis of the deposited data

Results flagged for a closer look

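A library was picked out where it stood apart from the other 5 of its condition by Dixon's criterion, which chance alone would meet in about 1 of 20 groups; 10 of the 172 combinations of named member and condition met it. Of these, 4 were replicate 6, 3 replicate 4, 2 replicate 2 and 1 replicate 1. AF131217.1 stood low in replicate 6 of PGCC both without LCL521, at 1.61 CPM against 2.95 to 3.45 in the others, and with it, at 1.77 CPM against 3.07 to 3.74. DIO3OS was at 33.3 CPM in parental replicate 6, against 4.95 to 11.6 in the others. RP11-552D4.1 was at 5.0 CPM in PGCC replicate 6, against 1.95 to 3.09.

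LINC00662 was at 12.6 CPM in PGCC replicate 4, against 6.21 to 8.21 in the others. With LCL521, parental replicate 4 read 1.68 CPM for MIR924HG (LINC00669), against 0.177 to 0.613, and 117 CPM for RP11-220I1.1, against 88.6 to 97.5. LINC00973 (CTD-2021J15.2) was at 9.48 CPM in replicate 2 of PGCC with LCL521, against 7.07 to 7.79, and RP11-649A18.7 was at 1.82 CPM in replicate 2 of PGCC, against 3.28 to 4.0. SNHG19 (RP11-304L19.5) was at 7.33 CPM in replicate 1 of PGCC with LCL521, against 13.1 to 16.0.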

How the results depend on the processing

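The number of members called between PGCC and parental cells (69, and 81 with LCL521 in both) stayed within 1.5 times under DESeq2 (79 and 85), limma-voom (74 and 83), RLE factors (70 and 80), library totals (71 and 80), no filter on low counts (63 and 81), the replicate block (89 and 95), and leaving out 1 replicate (58 to 68, and 64 to 76). Leaving out replicates 4 and 5 gave 91 and 82, and 111 and 101 with the replicate block as well. The shares of all genes called moved as well, from 47.4% and 48.9% as reported. They were 49.8% and 51.7% under DESeq2, and 56.2% and 56.3% under the block. Without 1 replicate they were 39.8% to 45.9%, and 41.5% to 45.8%. Without replicates 4 and 5 and with the block they were 64.3% and 57.5%. The 81 members with 50 reads in all 24 libraries gave 25 and 32 calls. The rule of 20 reads in 6 libraries takes in more lincRNAs than the 162, so its 144 and 168 calls cannot be set beside 69 and 81. Members with a mean of 50 reads, a rule chosen after seeing the data, gave 46 of 128 and 61.

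With LCL521 in parental cells 0 members were called with and without the replicate block; in PGCC 0 without it, 3 with it, and 1, LINC00342, with it and without replicates 4 and 5; for the interaction 0 in both. Leaving out 1 replicate, without the block, gave 0 calls throughout in these comparisons. This does not bear on the 3 calls under the block, since leaving out a single replicate was not combined with it. Of 1330 values of named members under an alternative, 1249 kept direction and side of the threshold, 31 fell short of it, 32 newly passed it, 16 that had no call either way changed sign, and 2 changed sign and newly passed: without replicates 4 and 5 and with the block, LINC01133 (RP11-48O20.4) gave 0.22 (adjusted p = 0.0115; -0.18 as reported) and MRLN (RP11-59J5.1) 0.29 (adjusted p = 0.0418; -0.11 as reported), PGCC over parental cells. The causes were not tested. Of the 95 values under the block, 83 were the same; the calls it changed for named members were those of AC074389.9 and RP11-21N3.1 in both PGCC comparisons, of LINC00662 in the first, of CYTOR, NEAT1 and RP11-552D4.1 in the second, and of the 3 members with LCL521 in PGCC, and it changed no other call of a member named by rule. Low counts limit the largest rises, whose parental libraries held as few as 0 reads.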
